A study of Mus musculus with 23 samples.

Results

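The deletion of Slm2 was compared with its control across 3 neuronal populations of the mouse hippocampus at once, to describe the part of the response that the populations have in common. Slm2 is the older name of Khdrbs3, which encodes the RNA-binding protein SLM2. All 23 libraries of the series entered 1 additive model, with the population as a block and the genotype as the tested term, so that 11 conditional knockout (cKO) libraries stood against 12 wild-type (WT) libraries. The model thus asks which genes lay higher or lower in cKO when each library is set against WT libraries of its own population. Of 45706 genes in the count table, 18823 had enough reads to be tested.

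The libraries hold polyA-selected RNA from the hippocampus. The populations are named CamK, Grik and SST. The labels call CamK and Grik libraries excitatory pyramidal cells and SST libraries somatostatin-positive interneurons, and the series design speaks of CA1 and CA3 excitatory cells. CamK had 4 WT and 3 cKO libraries, and Grik and SST each had 4 and 4. The genotype labels are SLM2 WT and SLM2 cKO. The labels used here give no strain, age, sex, Cre driver, deleted exon or isolation method, and they do not say whether libraries came from separate animals. The p-values below therefore measure the spread between these libraries, which may be partly technical.

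SLM2 belongs to the STAR family of RNA-binding proteins, together with SAM68 (gene Khdrbs1), SLM1 (gene Khdrbs2) and the more distant Quaking (gene Qk). Each carries a KH domain, through which it contacts short A- and U-rich motifs in RNA. SLM2 is best known in the brain for steering alternative exons of the neurexins, presynaptic adhesion proteins whose splice forms set which postsynaptic partners they bind. SAM68 and SLM1 recognise much the same motifs and also act on neurexin transcripts, and the family members are expressed in different mixtures by different neurons.

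Depth was high and even. Reads assigned to genes ranged from 87612006 to 112993538 per library, with a median of 91378465. Levels are given in CPM, reads of a gene per 1000000 reads of the tested genes, with each library total scaled by its TMM factor. These factors (trimmed mean of M-values) ranged from 0.93 in Grik WT 6 to 1.14 in SST cKO 7. The summed level of 10 pyramidal cell markers lay between 6581 and 8136 CPM in CamK and Grik libraries and between 1171 and 1481 CPM in SST libraries. The summed level of 10 markers of SST interneurons lay between 152 and 301 CPM in the former and between 6405 and 8933 CPM in the latter, which is the order the labels give. Some libraries stood apart. Sst itself ranged from 159 CPM in SST WT 2 to 2125 CPM in SST cKO 3. SST cKO 7 had the highest summed non-neuronal markers of the SST libraries (1932 CPM) and the lowest SST marker sum (6405 CPM). SST WT 5 and SST cKO 3 held reads of both Xist and Y-linked genes, 14 other libraries held Y-linked reads with Xist under 1 CPM, and 7 held Xist with almost no Y-linked reads. Of those 14 libraries 8 were WT and 6 cKO, and of those 7 libraries 3 were WT and 4 cKO. The split was uneven within populations. The 7 libraries were CamK WT 5, CamK cKO 5 and CamK cKO 6, Grik WT 3, Grik WT 4 and Grik cKO 2, and SST cKO 4.

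In the model over the 3 populations, 2 genes rose in cKO and none fell. Both are paralogs of the targeted gene: Khdrbs2, which encodes SLM1, at 2.66 times the WT level, and Khdrbs1, which encodes SAM68, at 1.33 times. For Khdrbs1 the estimate in SST alone was 0.10 (SE 0.09) on the log2 scale, and its call was lost in 11 of 23 fits with 1 library left out, and without the CamK or the Grik libraries. Khdrbs2 was not called without the CamK libraries either. The 2 genes are 0.0106% of the genes tested by edgeR's quasi-likelihood test at a Benjamini-Hochberg adjusted p under 0.05. At an unadjusted p under 0.05 the same test gave 1156 genes (6.14%), of which 745 (3.96%) were higher and 411 (2.18%) lower in cKO. DESeq2 called 5 genes higher and limma-voom 4, with none lower by either. The read count of Khdrbs3 was not called and lay below WT in CamK and SST libraries and above WT in Grik libraries.

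**Figure D1:**
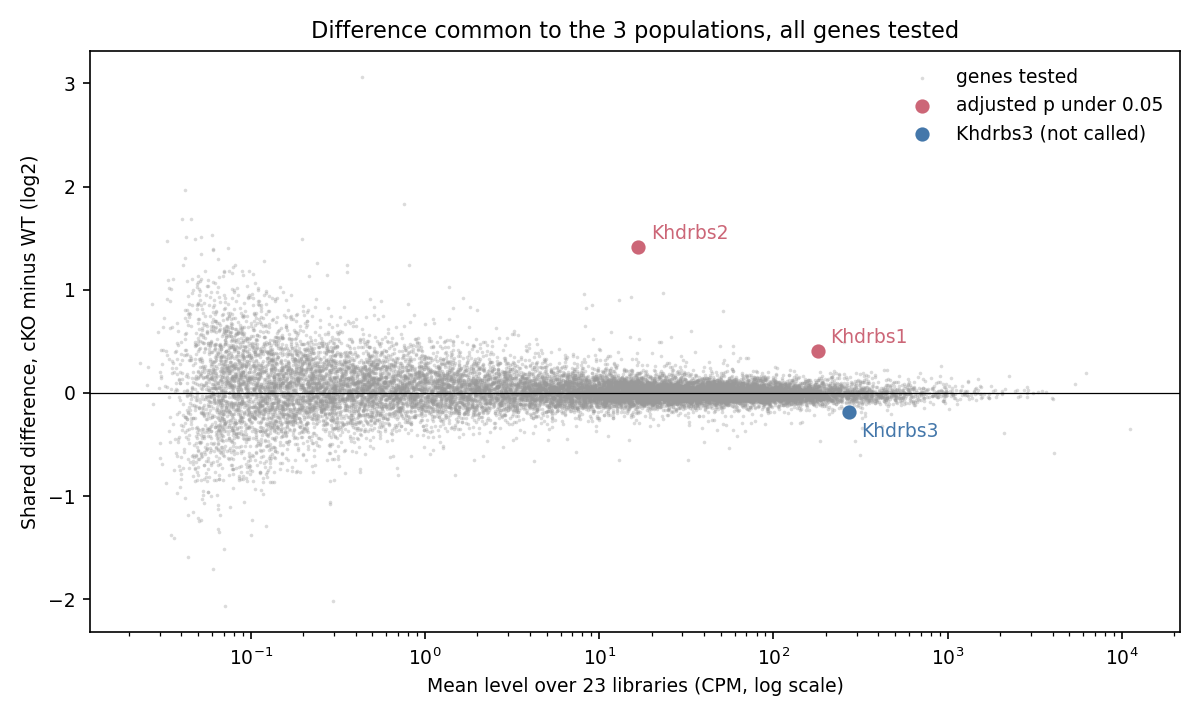
Shared log2 difference of cKO minus WT (vertical axis) against the mean level over 23 libraries (horizontal axis, CPM on a log scale) for the 18823 genes tested, 1 point per gene. Khdrbs2 at 1.41 and Khdrbs1 at 0.41 are the 2 genes called, and Khdrbs3 lies at -0.19.

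Khdrbs3 is described first because it is the gene the labels name as deleted. It is annotated on the plus strand at chr15:68928420-69101211 (ENSMUSG00000022332; GENCODE M21 on GRCm38), where it overlaps 1 predicted gene, Gm49422. Its counts cover the whole gene, so reads from exons that a deletion leaves in place count as much as others, and the level checks the label only in part. In CamK libraries it stood at 367, 356, 413 and 356 CPM in WT and at 294, 291 and 249 CPM in cKO. In Grik libraries it stood at 327, 330, 347 and 338 CPM in WT and at 412, 439, 396 and 409 CPM in libraries labelled cKO. In SST libraries it stood at 134, 124, 123 and 140 CPM in WT and at 87.9, 82.6, 98.8 and 106 CPM in cKO. WT and cKO did not overlap in any population, yet the direction in Grik was opposite to that in the other two. The level of Khdrbs3 thus does not back the cKO label in Grik. The library labels are still used below as given, and any direction in Grik is that of the libraries labelled Grik cKO.

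The shared log2 difference of Khdrbs3 was -0.19 (SE 0.09, 95% interval -0.36 to -0.01), with an adjusted p of 0.803 by edgeR's quasi-likelihood test with Benjamini-Hochberg adjustment. Taken by population the log2 difference was -0.42 (SE 0.08) in CamK, 0.30 (SE 0.07) in Grik and -0.47 (SE 0.08) in SST. The test that asks whether the genotype difference varies between populations gave an adjusted p of 0.00121 for this gene by edgeR. Without the Grik libraries the common log2 difference over CamK and SST was -0.46 (SE 0.06), and edgeR's adjusted p was 0.0112. A library pools many cells, so fewer cells of a type and less RNA per cell cannot be told apart for this or any other gene here.

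Khdrbs2 had the largest shared difference of the genes called. It spans chr1:32172714-32658568 on the plus strand (ENSMUSG00000026058), overlaps 8 predicted genes, and encodes SLM1, the family member closest to SLM2. In CamK libraries its level was 13.4, 15.01, 13.9 and 13.6 CPM in WT and 38.5, 38.0 and 44.0 CPM in cKO. In Grik libraries it was 5.21, 4.45, 3.88 and 5.24 CPM in WT and 19.8, 21.4, 22.3 and 20.8 CPM in libraries labelled cKO. In SST libraries it was 11.96, 10.6, 10.6 and 9.73 CPM in WT and 17.4, 20.4, 14.4 and 11.93 CPM in cKO. Every cKO library lay above every WT library in CamK and Grik. In SST the lowest cKO library, SST cKO 7, lay just under the highest WT library, SST WT 1. That order rests on the TMM factors, 1.14 for SST cKO 7 and 1.03 for SST WT 1. Before scaling, SST cKO 7 had 1247 of 91752792 gene-assigned reads and SST WT 1 had 1395 of 112993538, a smaller share. All 11 cKO libraries lay above the WT mean of their own population.

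The shared log2 difference of Khdrbs2 was 1.41 (SE 0.16, 95% interval 1.07 to 1.75), with an adjusted p of 0.000418 by edgeR's quasi-likelihood test with Benjamini-Hochberg adjustment. Its size differed between the populations: 1.52 (SE 0.13) in CamK, 2.17 (SE 0.13) in Grik and 0.58 (SE 0.12) in SST on the log2 scale. For that difference in size edgeR gave an adjusted p of 0.000216. The direction was the same in the 3 populations, and the shared value is an average over unequal effects. Group means went from 14.0 ± 0.699 CPM (SD, n = 4) to 40.2 ± 3.31 CPM (SD, n = 3) in CamK, from 4.69 ± 0.654 to 21.1 ± 1.02 CPM (SD, n = 4 each) in Grik, and from 10.7 ± 0.921 to 16.02 ± 3.66 CPM (SD, n = 4 each) in SST. Grik WT libraries had the lowest Khdrbs2 of the 6 groups, and in cKO the Grik mean lay between those of CamK and SST.

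The sequence upstream of the annotated start of Khdrbs2 is shown because this gene had the largest called difference in common. It is given for GRCm38.p6 from RefSeq, chr1:32172472-32172711 on the plus strand, 240 bases 5′ to 3′. Of the 3 Khdrbs genes looked up, it was the 1 with a promoter in the table used, and Khdrbs1 and Khdrbs3 are named only. Capitals mark a GC box (GGGCGG, here read on the minus strand as CCGCCC) and a CCAAT box (CCAAT, on the plus strand), and the first GC box overlaps the first CCAAT box.
Khdrbs2 promoter: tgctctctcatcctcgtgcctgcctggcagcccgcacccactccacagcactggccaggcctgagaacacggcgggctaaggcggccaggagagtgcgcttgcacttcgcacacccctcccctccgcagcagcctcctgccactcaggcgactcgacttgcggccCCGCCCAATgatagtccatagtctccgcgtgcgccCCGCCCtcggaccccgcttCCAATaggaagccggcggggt
Both strands were searched. The window held 2 GC boxes and 2 CCAAT boxes and no TATAAA. Of the 32851 promoter windows given with it, 31.3% held a GC box, 33.0% a CCAAT box and 12.1% TATAAA. Its GC share was 68.33%, against a median of 52.08% over all windows. These matches describe the letters of the window only, and the libraries carry no measurement of binding there.

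Khdrbs1 was the other gene called. It lies on the minus strand at chr4:129703164-129742303 (ENSMUSG00000028790), overlaps no other annotated gene, and encodes SAM68, the broadly expressed member of the family. In CamK libraries its level was 152, 157, 162 and 131 CPM in WT and 220, 224 and 234 CPM in cKO. In Grik libraries it was 137, 127, 108 and 126 CPM in WT and 191, 170, 184 and 186 CPM in libraries labelled cKO. In SST libraries it was 196, 194, 188 and 206 CPM in WT and 221, 237, 210 and 171 CPM in cKO. In CamK and Grik all cKO libraries lay above all WT libraries. In SST the highest 3 libraries were cKO, and the lowest of all 8 was SST cKO 7, so the groups overlapped.

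The shared log2 difference of Khdrbs1 was 0.41 (SE 0.07, 95% interval 0.27 to 0.54), with an adjusted p of 0.0144 by edgeR's quasi-likelihood test with Benjamini-Hochberg adjustment. Of 11 cKO libraries, 10 lay above the WT mean of their population. By population the log2 difference was 0.59 (SE 0.09) in CamK, 0.56 (SE 0.09) in Grik and 0.10 (SE 0.09) in SST. For variation of this difference between populations edgeR gave an unadjusted p of 0.000673 and an adjusted p of 0.697, so it did not pass. Group means were 150 ± 13.7 CPM (SD, n = 4) and 226 ± 7.32 CPM (SD, n = 3) in CamK, 124 ± 12.1 and 183 ± 9.17 CPM (SD, n = 4 each) in Grik, and 196 ± 7.50 and 210 ± 28.1 CPM (SD, n = 4 each) in SST. The SST cKO group had the widest spread of the 6, and SST cKO 7 set its lower end.

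**Figure D2:**
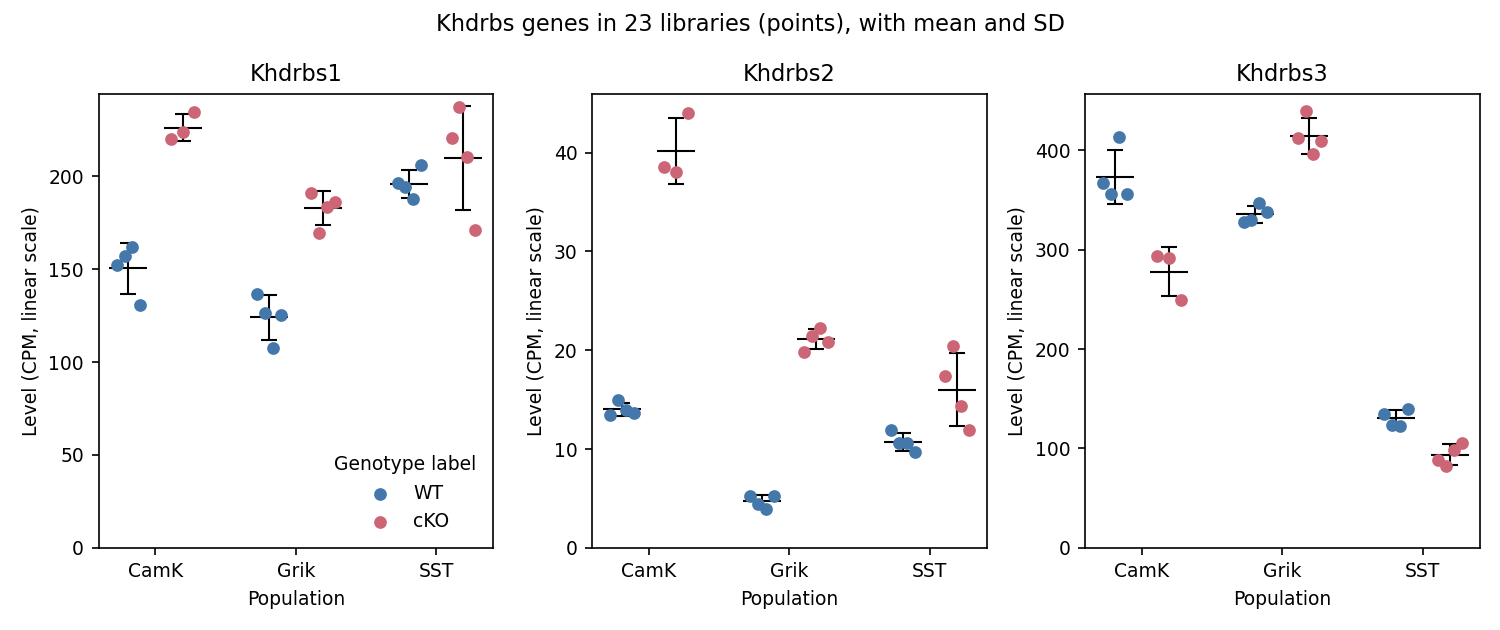
Level of Khdrbs1, Khdrbs2 and Khdrbs3 (vertical axes, CPM on a linear scale from 0) in each of 23 libraries, by population and genotype label; points are libraries, and the horizontal marks and bars give the mean and SD of each group. Khdrbs1 and Khdrbs2 show no overlap of WT and cKO in CamK and Grik and an overlap in SST, and Khdrbs3 is lower in cKO in CamK and SST and higher in Grik.

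The call of Khdrbs2 held when any 1 library was left out (log2 difference 1.34 to 1.50), and that of Khdrbs1 did not. With 1 library left out, the shared log2 difference of Khdrbs1 ranged from 0.37 to 0.45, and edgeR's adjusted p passed 0.05 in 11 of 23 cases. These were CamK WT 2 (0.0829), CamK WT 3 (0.0774), CamK WT 4 (0.0641), CamK cKO 6 (0.0517), Grik WT 4 (0.0671), Grik WT 5 (0.0744), Grik WT 6 (0.0693), Grik cKO 1 (0.0630), Grik cKO 2 (0.0542), Grik cKO 3 (0.0844) and Grik cKO 4 (0.0849). None of the 8 SST libraries was among them. Without all SST libraries the log2 difference over CamK and Grik was 1.86 (SE 0.10) for Khdrbs2 and 0.57 (SE 0.05) for Khdrbs1, with edgeR's adjusted p at 1.6e-09 and 1.7e-05. Without the CamK libraries neither gene was called: the log2 difference was 1.35 (SE 0.24) for Khdrbs2 and 0.32 (SE 0.08) for Khdrbs1, and edgeR's adjusted p was 0.594 for each. Without the Grik libraries Khdrbs2 was at 1.01 (SE 0.15, edgeR's adjusted p 0.0444) and Khdrbs1 at 0.32 (SE 0.09, edgeR's adjusted p 0.999).

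Per length the 3 genes can be compared with each other. Khdrbs2 was the lowest of the family in each of the 6 groups: in CamK libraries it went from 1.36 ± 0.0679 CPM per kilobase of exon (SD, n = 4) in WT to 3.90 ± 0.321 (SD, n = 3) in cKO, where Khdrbs1 stood at 35.2 ± 1.14 and Khdrbs3 at 75.9 ± 6.86. In Grik libraries Khdrbs2 went from 0.456 ± 0.0636 to 2.05 ± 0.0992 CPM per kilobase and in SST libraries from 1.04 ± 0.0895 to 1.56 ± 0.356 (SD, n = 4 each). On this scale the largest fold in the family thus belonged to the gene with the least RNA. The summed level of the 3 genes was 127 ± 8.83 and 115 ± 5.43 CPM per kilobase for WT and cKO in CamK, 111 ± 0.872 and 144 ± 3.90 in Grik, and 67.1 ± 3.35 and 59.9 ± 2.16 in SST. The sum was therefore lower in cKO in 2 populations and higher in the third, and no common direction was present in it.

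Quaking, the STAR protein outside the Khdrbs genes, gave a shared log2 difference of 0.01 (SE 0.06, edgeR's adjusted p 0.988). In the list of 14 KH-domain or STAR-family RNA-binding protein genes outside the Khdrbs genes, which includes Qk, none was called or had an unadjusted p under 0.05. Their median log2 difference was -0.01, with 6 above and 8 below 0, and their range was -0.08 to 0.08. Khsrp, a KH-domain protein of mRNA decay and splicing, had the lowest p of them, at 0.08 (SE 0.05), and 0.05 to 0.11 with 1 library left out. Of 39 genes for other splicing regulators none was called, 31 lay below 0 and 8 above, and the median was -0.04. Of these 39, 4 had an unadjusted p under 0.05, all lower in cKO: Srsf1 at -0.11 (SE 0.04) and Srsf6 at -0.14 (SE 0.06), both SR proteins, Hnrnpll at -0.12 (SE 0.05), an hnRNP, and Tial1 at -0.08 (SE 0.04), a regulator of U-rich sites. That is 10.3% of the list, beside 6.14% of all genes tested at either sign and 2.18% lower in cKO. The non-neuronal markers described below lay mostly above 0, and their part in this list was not tested.

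Transcripts whose exons SLM2 is known to regulate were measured here only as whole genes, and 3 of them are given. Nrxn2 had a shared log2 difference of 0.13 (SE 0.06), Nrxn3 of 0.04 (SE 0.06), and Stxbp5l, a syntaxin-binding protein gene, of -0.08 (SE 0.10). With 1 library left out Stxbp5l ranged from -0.13 to -0.02, the latter without SST WT 3, and Nrxn3 from -0.0073 to 0.064, changing sign without CamK cKO 5. Nrxn3 was at -0.026 without the CamK libraries, and Stxbp5l at 0.020 without the SST libraries. None was called, and Nrxn2 had the lowest unadjusted p of the 3 at 0.0321, with an adjusted p of 0.794 by edgeR. Gene counts do not separate splice forms, so exon choice was not analysed here.

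On the scaled CPM, no gene had cKO libraries wholly above or wholly below WT libraries in all 3 populations in the same direction (0 of 18823 each way). Size factors by relative log expression also gave 0. The count depends on scaling: as unscaled shares of gene-assigned reads, Khdrbs2 and Sufu were apart in all 3 populations. The groups were apart in at least 2 populations with cKO higher in both for 23 genes (0.122%) and with cKO lower in both for 29 genes (0.154%). For 44 genes (0.234%) they were apart in opposite directions in different populations, Khdrbs3 among them. Leaving out SST cKO 7 gave 3 genes apart in all 3 populations, namely Khdrbs2, Khdrbs1 and Sufu. Leaving out SST WT 1 gave Khdrbs2 and Sufu. The 3 population estimates had the same sign for 5039 genes (26.8%).

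The difference in size between populations passed for 2 genes (0.0106%), Khdrbs2 and Khdrbs3, and 1089 genes (5.79%) had an unadjusted p under 0.05 in that test by edgeR. DESeq2 called 14 genes in it. For all but those 2 genes the data did not separate the populations at this threshold in the edgeR test, which does not show that the effects were equal.

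The 18 uncalled genes of lowest p with the same sign in all 3 populations and a mean of at least 1 CPM are given next, as values. Their log2 differences lay between -0.32 and 0.63, with 13 above and 5 below 0, and their adjusted p ran from 0.437 to 0.777 by edgeR's quasi-likelihood test with Benjamini-Hochberg adjustment. They were chosen by p and sign, so their direction in the 3 populations is part of the choice. Unadjusted interaction p ranged from 0.0909 to 0.978. For 12 of the 18 all 11 cKO libraries lay on 1 side of the WT mean of their population, and the largest of the 3 population estimates was that of CamK for 11 genes, of Grik for 6 and of SST for 1.

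Ephb2, a receptor tyrosine kinase for ephrin-B ligands at synapses and growth cones, had the lowest p of these. Its level in CamK was 19.1, 20.2, 22.8 and 21.9 CPM in WT and 27.9, 25.4 and 28.4 CPM in cKO. In Grik it was 32.6, 36.9, 40.8 and 35.3 CPM in WT and 43.6, 43.0, 39.9 and 45.3 CPM in libraries labelled cKO, and in SST 11.7, 14.0, 10.8 and 11.2 CPM in WT and 12.3, 12.4, 15.3 and 13.3 CPM in cKO. The groups were apart in CamK only, and 1 WT library lay among the cKO libraries in each of the other populations. The shared log2 difference was 0.25 (SE 0.05), with edgeR's adjusted p at 0.437. DESeq2 called it at an adjusted p of 0.0239, and edgeR did so once SST WT 2 was left out (0.28, SE 0.05, adjusted p 0.0442).

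Sufu, a negative regulator of Hedgehog signalling, differed by 0.18 (SE 0.04), with edgeR's adjusted p at 0.591 and DESeq2's at 0.0207. Its level in CamK was 21.4, 20.4, 19.6 and 20.7 CPM in WT and 23.5, 22.3 and 24.5 CPM in cKO. In Grik it was 16.8, 17.7, 19.8 and 19.6 CPM in WT and 22.7, 20.9, 21.1 and 20.6 CPM in libraries labelled cKO, and in SST 15.8, 14.6, 14.1 and 13.6 CPM in WT and 16.2, 16.7, 16.7 and 14.9 CPM in cKO. On the scaled CPM the groups were apart in CamK and Grik and overlapped in SST through SST WT 1 and SST cKO 7. Its population estimates were alike: 0.19 in CamK, 0.21 in Grik and 0.15 in SST on the log2 scale.

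Efemp1, which encodes the extracellular matrix protein fibulin-3, had the largest difference of the 18, 0.63 (SE 0.14) on the log2 scale. Its level was under 1 CPM in all CamK libraries, with 0.550, 0.809, 0.350 and 0.613 CPM in WT and 0.837, 0.653 and 0.837 CPM in cKO. In Grik it was 3.82, 4.17, 5.04 and 4.52 CPM in WT and 5.75, 6.93, 7.52 and 7.14 CPM in libraries labelled cKO, and in SST 0.454, 1.09, 0.609 and 1.29 CPM in WT and 1.29, 1.31, 1.73 and 1.54 CPM in cKO. The groups were apart in Grik only. By edgeR the adjusted p was 0.591, while DESeq2 called the gene at 0.0207 and limma-voom at 0.00921. With the non-neuronal markers described further on as a covariate, its difference was 0.53 (SE 0.14).

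Of the remaining 15 genes, 10 lay above 0. Adgrg1 (0.33, SE 0.08) encodes an adhesion G protein-coupled receptor, Pik3ip1 (0.33, SE 0.08) an inhibitor of phosphoinositide 3-kinase, and Asic1 (0.19, SE 0.05) an acid-sensing ion channel. Transcription factor genes among them were Tshz3 (0.30, SE 0.08), Etv6 (0.23, SE 0.06), an ETS-family repressor, and Cxxc5 (0.14, SE 0.04), a CXXC zinc-finger gene. Sema4a (0.22, SE 0.06) encodes a semaphorin, Oplah (0.21, SE 0.05) an enzyme of the glutathione cycle, Ilvbl (0.20, SE 0.05) a relative of acetolactate synthases, and St3gal1 (0.36, SE 0.10) a sialyltransferase. All values are shared log2 differences, and none was called by edgeR.

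The 5 genes below 0 were Nabp1 (-0.29, SE 0.07), which encodes a single-stranded DNA-binding protein, Zfp410 (-0.23, SE 0.05), a zinc-finger transcription factor, Mageh1 (-0.14, SE 0.04), of the MAGE family, Wdr78 (-0.32, SE 0.09), a component of axonemal dynein, and Carf (-0.20, SE 0.05), a calcium-responsive transcription factor. For Nabp1, Mageh1 and Wdr78 none of the 11 cKO libraries lay above its WT mean, while 2 did for Zfp410 and 1 for Carf. Oplah, Wdr78 and Carf overlap other named genes (Exosc4 and Smpd5, Mier1, and Wdr12), and whether the counts used strand is not given in the sources used here.

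**Figure D3:**
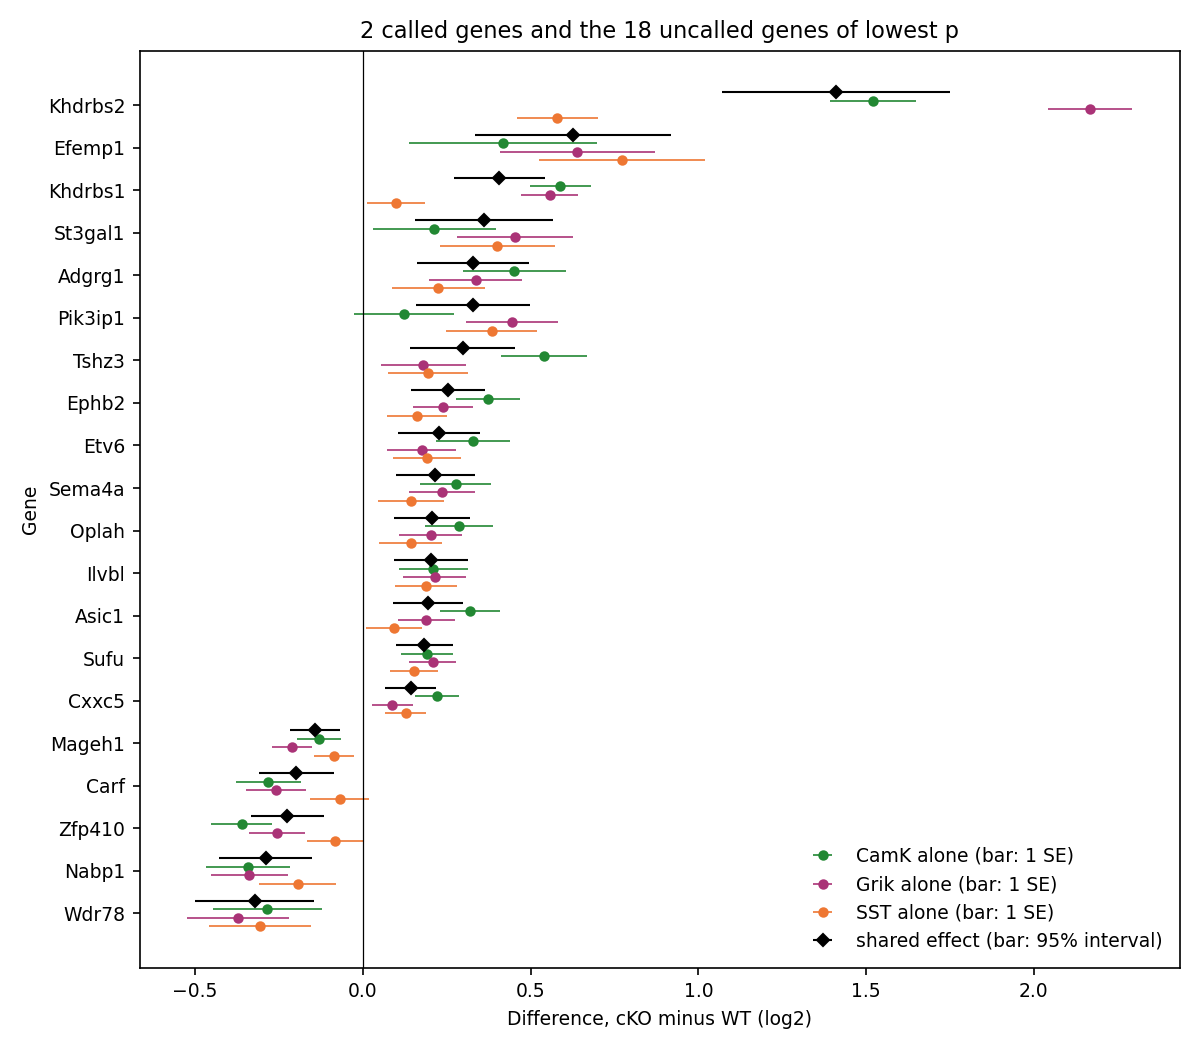
Log2 difference of cKO minus WT (horizontal axis) for the 2 called genes and the 18 uncalled genes of lowest p (vertical axis): black diamonds give the shared effect with its 95% interval, and coloured points give each population alone with 1 SE. The 3 populations lie on the same side of 0 for all 20 genes, and the spread between populations is widest for Khdrbs2 (0.58 to 2.17).

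Neuronal gene groups held no called gene. Among 47 genes for synaptic adhesion proteins and organisers none was called, 34 lay above 0 and 13 below, and the median log2 difference was 0.04. Of these 47, 7 had an unadjusted p under 0.05 with cKO higher (14.9%, beside 3.96% of all genes) and none with cKO lower. By population the median of the list was 0.13 for CamK, 0.00055 for Grik and 0.06 for SST, and in CamK the summed non-neuronal markers described below were also higher in cKO without overlap (616 to 714 against 384 to 571 CPM). The part of those markers in this list was not tested. The lowest p belonged to Igsf8 (0.17, SE 0.06), an immunoglobulin-family membrane protein, Clstn1 (0.16, SE 0.06), a calsyntenin, Cadm3 (0.14, SE 0.05), a nectin-like adhesion molecule, and Cbln2 (0.41, SE 0.15), a secreted ligand of neurexins. Among 27 genes for ionotropic glutamate and GABA-A receptor subunits none was called, 21 lay above 0 and the median was 0.06. Of these, Grin1 (0.19, SE 0.06), the obligatory NMDA receptor subunit, Gabrd (0.24, SE 0.10), Grik5 (0.10, SE 0.05) and Grik3 (0.15, SE 0.07) had an unadjusted p under 0.05. These 4 are 14.8% of the list, all higher in cKO, beside 3.96% of all genes. Over all 18823 genes 52.8% lay above 0 and the median was 0.0069.

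Of 20 activity-regulated genes none was called and 14 lay below 0, with a median of -0.05. Nr4a2, an orphan nuclear receptor, was at 0.31 (SE 0.11) and Dusp1, a MAP kinase phosphatase, at -0.20 (SE 0.09), and these were the 2 with an unadjusted p under 0.05 (10% of the list, beside 6.14% of all genes). Of 15 stress and interferon genes none was called and 11 lay above 0, with a median of 0.07. Gadd45b, a stress-inducible gene, was at 0.21 (SE 0.08) and was the 1 member with an unadjusted p under 0.05 (6.67%, close to the 6.14% of all genes). Its estimate was -0.02 in CamK, 0.45 in Grik and 0.17 in SST. Under 15 other settings of the fit its shared value ranged from 0.07 to 0.30. Of 10 genes for factors of nonsense-mediated decay, which removes transcripts with early stop codons, 9 lay above 0 with a median of 0.04, and none had an unadjusted p under 0.05.

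Neuronal markers gave medians near that of all genes: 0.03 for 10 pyramidal cell markers and 0.0041 for 10 markers of SST interneurons, the labelled types, and 0.01 for 6 markers of dentate granule cells, which the labels do not name. None was called. Tbr1, a pyramidal cell transcription factor, was at 0.31 (SE 0.13) and Satb1, a chromatin organiser of interneurons, at 0.10 (SE 0.05), and these were the 2 of 26 with an unadjusted p under 0.05, a share close to the 6.14% of all genes. Without SST cKO 7, where Tbr1 stood at 10.5 CPM against 3.68 to 4.79 CPM in SST WT, its shared difference was 0.19. In Grik alone it was -0.01.

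None of 40 markers of non-neuronal cells was called, while 38 had a shared difference above 0, beside 52.8% of all genes tested. All 10 astrocyte markers were above 0 (median log2 difference 0.22), all 10 markers of the oligodendrocyte lineage (0.41), all 10 of microglia (0.35) and 8 of 10 of vascular cells (0.24). The direction was not the same in every population: the median of the microglia markers was -0.11 for CamK, 0.17 for Grik and 0.82 for SST, while the vascular markers had medians of 1.03, 0.17 and -0.18 in that order. All 3 populations had the same sign for 8 of the 10 astrocyte, 9 of the 10 oligodendrocyte lineage, 5 of the 10 microglia and 1 of the 10 vascular markers. An unadjusted p under 0.05 was reached by 7 of these 40, all higher in cKO, beside 3.96% of all genes: Aldh1l1 (0.57, SE 0.18) and Aldoc (0.25, SE 0.09, with 0.66 in CamK and -0.05 in Grik) of astrocytes, and 5 of oligodendrocyte lineage, among them Mog (0.59, SE 0.24), Mag (0.55, SE 0.23), Pdgfra (0.43, SE 0.18) and Cldn11 (0.49, SE 0.22). The summed level of the 40 markers ranged from 384 to 571 CPM in CamK WT and from 616 to 714 CPM in CamK cKO, without overlap. It ranged from 1633 to 1998 CPM in Grik WT and 1751 to 2180 CPM in Grik cKO, and from 774 to 1379 CPM in SST WT and 714 to 1932 CPM in SST cKO, with overlap in both. Some marker genes are also transcribed at low level in neurons.

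The shared difference was above 0 for 38 of these 40 markers and for 13 of the 18 lowest-p genes, so the model was also fitted with each library's mean log2 level of these markers as a covariate. The same 2 genes were called. Khdrbs2 then stood at 1.47 (SE 0.17, edgeR's adjusted p 0.000874) and Khdrbs1 at 0.44 (SE 0.07, edgeR's adjusted p 0.00792), and 872 genes instead of 1156 had an unadjusted p under 0.05. All 18 lowest-p genes kept their sign, with Ephb2 at 0.24, Sufu at 0.19, Adgrg1 at 0.26 and St3gal1 at 0.29 on the log2 scale. They had been chosen by low p and 1 sign, so a kept sign says little about the non-neuronal markers. In SST cKO 7, the library with the highest non-neuronal sum of its population, both Khdrbs2 and Khdrbs1 were the lowest of the SST cKO libraries.

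**Figure D4:**
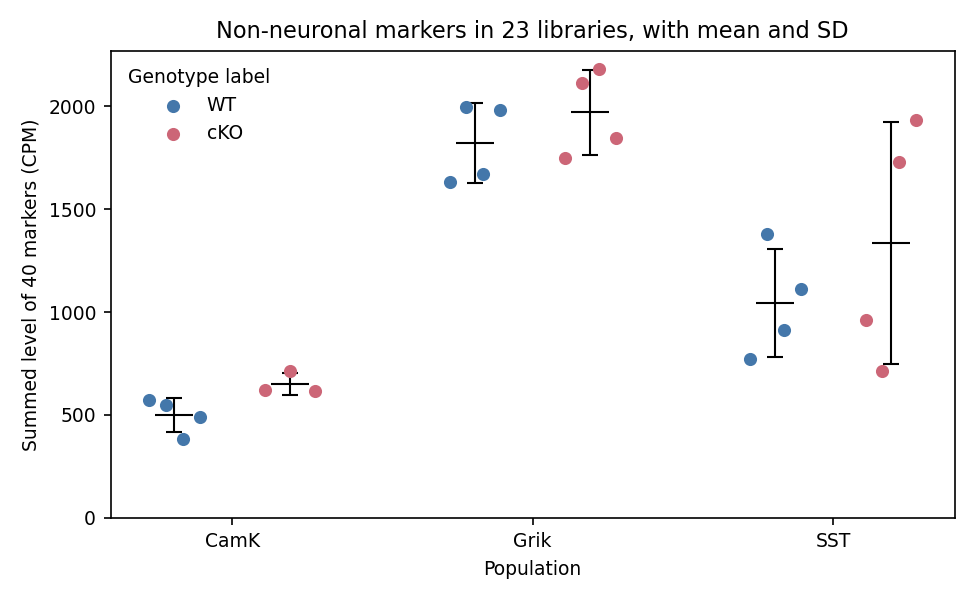
Summed level of 40 markers of astrocytes, oligodendrocyte lineage, microglia and vascular cells (vertical axis, CPM from 0) in each of 23 libraries, by population and genotype label; points are libraries, and the marks and bars give the mean and SD of each group. The CamK cKO libraries (616 to 714) lie above the CamK WT libraries (384 to 571), and the groups overlap in Grik and SST.

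Genes near the targeted locus were described apart, since alleles linked to a targeted gene can differ between genotypes. Of 69 genes of the table within 5 Mb of Khdrbs3, 37 were tested, none was called, and 21 lay above and 16 below 0, with a median of 0.06. St3gal1 (0.36, SE 0.10) and Col22a1 (-0.33, SE 0.16), a collagen gene, had an unadjusted p under 0.05, which is 5.41% of the 37 beside 6.14% of all genes. Col22a1 was at -0.28 in CamK, -0.74 in Grik and 0.08 in SST. Under 15 other settings of the fit its shared value ranged from -0.62 to -0.11. The strain background of these libraries is not given in the labels used here. Of 5 sex-linked genes none was called, with Xist at 0.82 (SE 1.45) and Kdm5d at -0.65 (SE 0.98). With 1 library left out Xist ranged from 0.20 to 2.57 and Kdm5d from -1.09 to -0.47. With a sex-linked score as a covariate Khdrbs2 stood at 1.42 (SE 0.17) and Khdrbs1 at 0.40 (SE 0.07).

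**Figure D5:**
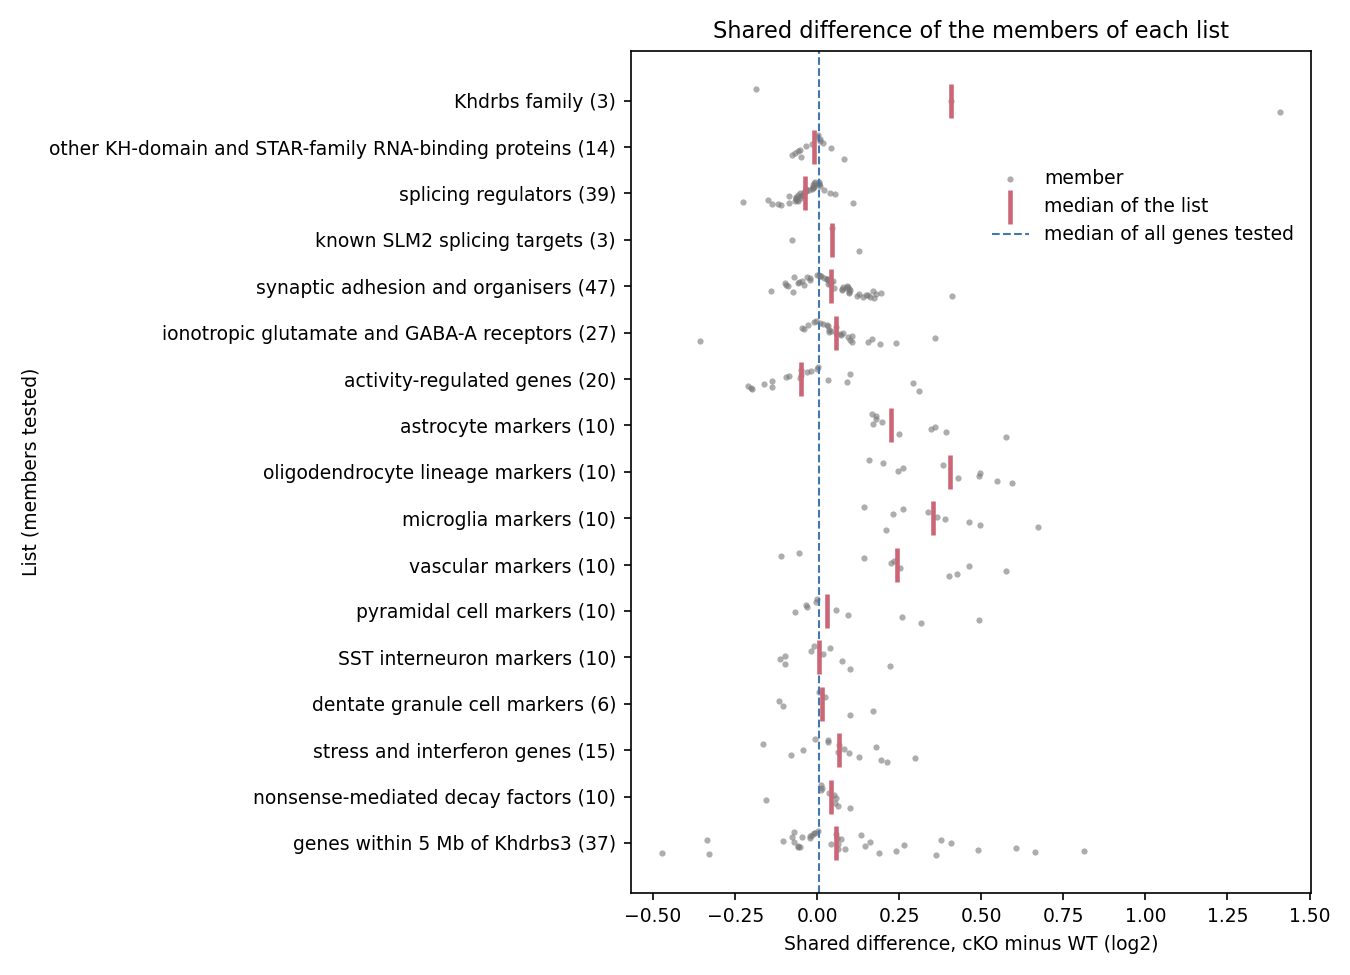
Shared log2 difference of cKO minus WT (horizontal axis) for each tested member (grey points) of 17 gene lists (vertical axis, with the number tested), with the median of each list (red mark) and of all genes tested (dashed line at 0.0069). The medians of the non-neuronal lists lie at 0.22 to 0.41, those of the neuronal lists within 0.06 of 0, and Khdrbs2 is the farthest point at 1.41.

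The precision of the shared effect sets what a missing call can mean. For the 13001 genes with a mean of at least 1 CPM the median SE of the log2 difference was 0.0615, and the 95% interval lay within 1.25-fold either way for 81.4% of them and within 1.5-fold for 96.0%. For the 5822 genes under 1 CPM the median SE was 0.303, and 24.1% had an interval within 1.5-fold. A common change of 1.5-fold or more was thus outside the interval of most genes above 1 CPM and inside that of most genes below it.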

How the data were processed

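The authors deposited 1 table of raw read counts per gene for 23 libraries; per the submitters' processing notes, Trimmomatic, STAR and GRCm38 were used, with versions, annotation and strand setting not given in the sources used here. The 4 STAR summary rows (12.4 to 18.4% of reads) were left out. Genes were named through GENCODE M21 (45143 of 45706 IDs). In edgeR 4.0.16 (R 4.3.3) genes passed filterByExpr over 6 groups, were scaled by TMM and fitted by robust quasi-likelihood with population and genotype (19 residual degrees of freedom); population by genotype was tested with 2 degrees of freedom. SE is the log2 difference over the root of F. DESeq2 1.42.0 and limma 3.58.1 were alternatives. The code was tested on simulated data. Named were the Khdrbs genes, Qk, called genes, uncalled genes of lowest p with 1 sign and at least 1 CPM to 20 in all, SLM2 targets, and 2 to 4 members per list by p; 1 gene is not reported here. Members and lists were chosen with earlier results of these data known. Libraries of 1 group all differed beyond sampling noise (lowest chi-square per degree of freedom 8.27).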

Additional observations from a re-analysis of the deposited data

Results flagged for a closer look

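Khdrbs2 and Khdrbs3 were picked out because their genotype difference varied between the populations (edgeR's adjusted interaction p 0.000216 and 0.00121). Khdrbs2 differed in size with 1 direction, and Khdrbs3 in direction.

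A further 6 values were picked out because 1 library of a group of 4 lay far from the others, measured as its gap to the nearest library over the range of the group. Sema4a was highest in CamK WT 5 (15.1 CPM, the others 12.03 to 12.3, gap 0.9 of the range) and in SST WT 5 (13.5 CPM, the others 11.4 to 11.6, gap 0.912). Ilvbl was highest in CamK WT 5 (4.65 CPM, the others 3.73 to 3.82, gap 0.907). Carf was highest in Grik WT 3 (23.1 CPM, the others 18.6 to 19.1, gap 0.881). The summed pyramidal cell markers were lowest in Grik cKO 3 (7151 CPM, the others 7633 to 7716, gap 0.854) and in SST WT 1 (1177 CPM, the others 1292 to 1311, gap 0.854). In all, 140 such groups of values were looked at, where chance gives about 1 in 20, or 7.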

How the results depend on the processing

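The same 2 genes were called higher and none lower with size factors by relative log expression, with all genes kept, with a CPM filter, without robust estimation, with an equal-weight mean of the population effects, a non-neuronal or sex-linked covariate, without SST libraries, and in 2 settings chosen after seeing the data (without SST WT 5 and SST cKO 3, and without SST WT 2 and SST cKO 7). Counts of genes higher were 5 with DESeq2, 4 with limma-voom (Khdrbs2, Khdrbs1, Efemp1 and Wnt10a, the last outside the naming rule and named after its values were seen), 0 without the CamK samples and 1 without the Grik samples, where 1 gene was lower. Genes called in the interaction test numbered 14 with DESeq2 and 3 without SST WT 5 and SST cKO 3. With 1 library left out, genes higher ranged from 1 to 3, genes lower stayed at 0, interaction calls ranged from 2 to 3 and genes apart in all 3 populations from 0 to 3.

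Replicate numbers are shared between WT and cKO for 6 pairs, whose deviations from the group means correlated at 0.105 and -0.03 (CamK), -0.08 and -0.22 (Grik) and -0.11 and 0.27 (SST). So few values cannot settle whether the numbers pair the samples, and the labels do not say. Most replicate blocks hold 1 library, so a fit with them keeps fewer residual degrees of freedom than the 19 of the additive model. With a replicate block 0 genes were called (1456 at an unadjusted p under 0.05) and 4 in the interaction test (Sv2c, Meis2, Eno1b and Khdrbs2, the first 3 named after their values were seen), where Khdrbs3 was no longer called (edgeR's adjusted p 0.152). In the shared test Khdrbs2 kept 1.42 (edgeR's adjusted p 0.298) and Khdrbs1 0.41 (edgeR's adjusted p 0.318).

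Of 959 values of 64 named genes under 15 settings, 939 kept direction and side of the threshold and 10 changed sign, all uncalled: Kdm5d 1.76 and Xist -2.62 with the replicate block, Xist -0.10 with the sex-linked covariate and -0.50 without CamK, Qk -0.052 with the non-neuronal covariate, -0.025 without CamK and -0.029 without Grik, Nrxn3 -0.026 without CamK, Stxbp5l 0.020 and Sst -0.038 without SST. With 1 library left out, Qk (-0.032 to 0.030) and Nrxn3 (-0.0073 to 0.064) changed sign in 7 of 1472 values. The 18 lowest-p genes changed sign in none, which their choice by low p and 1 sign makes likely. The causes of the sign changes were not tested. The SE of the shared difference was larger below 1 CPM (median 0.303) than above it (0.0615), and depth itself was not varied.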

Other observations

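WT and cKO libraries were apart in at least 2 populations in the same direction for 23 genes higher (0.122%) and 29 lower (0.154%) in cKO. A few neuronal and signalling genes among them that the text has not described are given here. These few were chosen after their values were seen, and none of them was called in the shared test by edgeR. Above WT lay Plat, which encodes tissue plasminogen activator (shared log2 difference 0.27, SE 0.08), Crhr1, the receptor of corticotropin-releasing hormone (0.29, SE 0.09), Sema4c, a semaphorin like Sema4a (0.24, SE 0.07), and Boc, a cell-surface co-receptor for Hedgehog ligands (0.30, SE 0.11). Sema4c had nearly the same estimate in each population: 0.26 in CamK, 0.24 in Grik and 0.23 in SST.

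Below WT lay Pard3, a cell polarity scaffold (-0.17, SE 0.05), and Rabggtb, a subunit of the enzyme that attaches lipid anchors to Rab proteins (-0.09, SE 0.03). Rabggtb was apart in all 3 populations when either Grik WT 5 or Grik cKO 1 was left out. Mageh1 was so without SST cKO 3 and Cxxc5 without CamK cKO 5.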
